A study of Homo sapiens with 6 samples.

Results

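The 40 genes described here are the enzymes of glycolysis with the lactate dehydrogenases, carriers of glucose and of lactate, kinases that set the use of glucose and pyruvate, the alpha subunits of the hypoxia-inducible factors (HIF), the prolyl hydroxylases that mark those subunits, and genes that low oxygen induces. They were taken as a fixed list of gene symbols, and each symbol matched 1 Ensembl identifier among the 60483 genes counted. Their RNA was compared between A2780 WT cells, an ovarian carcinoma line (WT, 3 libraries), and the A2780 CDK12 KO clone (KO, 3 libraries). CDK12 is a kinase that phosphorylates RNA polymerase II during transcription elongation. The KO cells descend from A2780 through 2 rounds of CRISPR/Cas9 transfection against exon 1 of CDK12. They are a single clone with both alleles altered, for which the study reported raised DNA content, more chromosomes and slower growth. The loss of CDK12 and these or other properties of this clone cannot be told apart. Both cell types were grown in RPMI medium with serum and glutamine, and no drug or low-oxygen step is named for any library. The comparison asks which of these genes were higher or lower in KO cells.

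Total counts ranged from 11098400 in WT replicate 3 to 30899045 in WT replicate 2, and levels are given as CPM, counts scaled to the size of each library. CDK12 itself was at 103, 125 and 117 CPM in the WT libraries and at 99.0, 93.0 and 102 CPM in the KO libraries, a small decrease (log2 fold change -0.23 ± 0.06 SE, adjusted p = 8.20e-04). Counts over the whole gene do not show an edit in exon 1, so they do not check the genotype. The 3 markers of ovarian carcinoma, PAX8, WT1 and MUC16, summed to at most 0.401 CPM in any library, and of the 6 epithelial markers CDH1, KRT7 and KRT19 stayed near 0. KRT18 rose from 59.9 ± 1.96 to 103 ± 2.73 CPM and KRT8 from 7.34 ± 0.262 to 10.96 ± 0.495 CPM, while EPCAM fell from 3.19 ± 0.794 to 2.17 ± 0.0446 CPM (mean ± SD, n = 3, here and below). The 5 leukocyte and the 3 endothelial markers summed to at most 1.04 and 0.892 CPM in any library, and the tested ones, CD14 and VWF, had means of 0.374 and 0.192 CPM in WT and of 0.709 and 0.704 CPM in KO. Of the 4 fibroblast markers all 4 fell, their sum lying between 610 and 658 CPM in WT and between 115 and 134 CPM in KO, with COL1A1 carrying most of it and LUM and DCN at 0 in KO. The fibroblast markers thus moved with the lowered genes below, and their part in those results was not tested.

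Glycolysis splits glucose into pyruvate. In its preparatory phase ATP is spent to phosphorylate and cleave the sugar, and in its payoff phase ATP and NADH are gained, after which lactate dehydrogenase can turn pyruvate into lactate and restore NAD+. Tumor cells often run this pathway at a high rate even with oxygen present. HIF alpha subunits are made continuously, and with oxygen present the EGLN prolyl hydroxylases mark them for binding by VHL and for degradation, so that RNA and protein levels of these subunits need not move together. With little oxygen the alpha subunit persists, pairs with ARNT and binds DNA at a short core, ACGTG, near genes that supply glucose, run glycolysis or spare oxygen. EGLN1 and EGLN3 are themselves among the genes that HIF induces.

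To show where that core lies, the 250 bases before the start of transcription were read from RefSeq promoter windows on GRCh38.p14. A window lying within 500 bases of the canonical start in GENCODE 44 was found for 32 of the 40 genes. ACGTG on either strand occurred in 16 of these 32 (50.0%), against 20.6% of 17598 genes with such a window and 23.6% of the 10662 among them that passed the count filter. By expression, the core was held by 13 of the 25 windows of genes lowered in KO (adjusted p under 0.05, described below). It was also held by 3 of the other 7, among them CA9, which was not tested. Of the 7 genes lowered most, 2 held it in this window, EGLN1 and ENO2 (28.6%, near the 23.6% of genes that passed the count filter). A match is a run of letters and not a measured binding site, and the remaining windows say only that these letters were not found there. Shown are the windows of EGLN1 and ENO2, because both genes were past both thresholds used below and hold the core, and those of LDHA, the gene with the most places, and ADM, the most lowered gene, which were chosen after their values were seen. Capitals mark ACGTG on the printed strand or its complement CACGT, and where both overlap they run together as CACGTG.

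EGLN1, the 250 bases directly before its start, chr1:231422288-231422537, minus strand, intergenic with the core close to the start: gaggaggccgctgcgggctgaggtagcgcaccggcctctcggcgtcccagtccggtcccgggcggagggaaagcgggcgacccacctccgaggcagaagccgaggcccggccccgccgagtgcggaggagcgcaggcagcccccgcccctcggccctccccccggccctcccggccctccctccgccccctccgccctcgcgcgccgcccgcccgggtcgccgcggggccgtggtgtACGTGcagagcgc
ENO2, the core with its flanks, chr12:6914450-6914478, plus strand, inside an exon of another annotated transcript: acccgcgctcgtACGTGcgcctccgccgg
LDHA, 247 bases ending 4 bases before its RefSeq start, chr11:18394313-18394559, plus strand, with 3 places: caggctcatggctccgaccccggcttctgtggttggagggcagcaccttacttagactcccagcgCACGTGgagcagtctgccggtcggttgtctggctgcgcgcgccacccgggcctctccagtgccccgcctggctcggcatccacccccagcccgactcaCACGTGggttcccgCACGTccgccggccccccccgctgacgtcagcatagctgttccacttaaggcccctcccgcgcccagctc
ADM, the 195 bases between its start and the gene SBF2, chr11:10304878-10305072, plus strand, with no core: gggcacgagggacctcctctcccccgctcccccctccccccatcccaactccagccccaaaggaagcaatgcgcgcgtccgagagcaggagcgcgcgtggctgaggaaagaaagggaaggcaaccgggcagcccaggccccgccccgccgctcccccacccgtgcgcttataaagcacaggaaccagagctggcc

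Of the 40 genes, 39 passed the count filter, and CA9, a carbonic anhydrase of the cell surface that is a standard hypoxia marker, had 0 counts in all 6 libraries. With thresholds of 0.05 for the adjusted p and of 1 for the size of the log2 fold change, 7 of the 39 passed both as down-regulated in KO (17.9%), against 7.73% of all 16198 genes tested, and 0 were up-regulated, against 8.30%. The 7 were ADM, EPAS1, EGLN1, CA12, EGLN3, ENO2 and HIF1A, and 6 of them belong to the HIF side of the list rather than to the 18 enzymes. At an adjusted p under 0.05 alone, 29 of 39 were lower (74.4%), against 32.0% of all tested genes, and 4 were higher (10.3%), against 31.9%. The median log2 fold change was -0.27 over the 39 genes and 0.000443 over all tested genes. WT and KO libraries did not overlap for 30 genes that were lower in KO, where 33.5% of all tested genes behaved so, and for 5 that were higher, where 32.8% did. These are counts over a list chosen with earlier results of the data known, and no test was made of the list. The labels do not say that the 3 libraries of a group came from separate cultures, so the p-values measure the spread between these libraries, which may be technical. In bulk RNA of this kind, fewer cells carrying an RNA and less RNA per cell cannot be told apart.

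**Figure D1:**
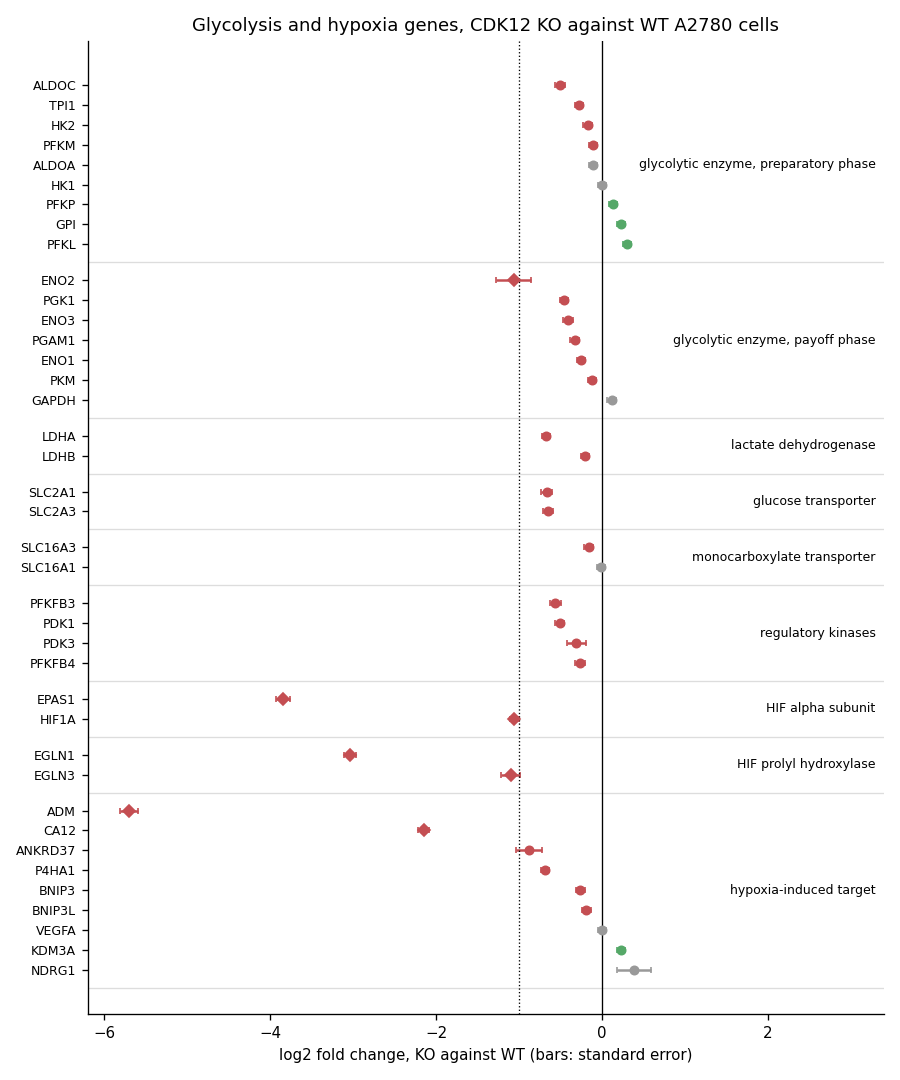
Log2 fold change of each of the 39 tested genes in KO against WT (horizontal axis, points with standard errors), grouped by role. Red points were lower and green points higher at an adjusted p under 0.05, grey points passed neither, and diamonds were also beyond the dotted line at -1. ADM lies at -5.71, and the glycolytic enzymes other than ENO2 lie between -0.51 and 0.30.

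Both HIF alpha subunits fell. HIF1A, which encodes the alpha subunit of HIF-1 (chr14:61695513-61748259, plus strand), was at 107, 117 and 103 CPM in the WT libraries and at 51.9, 52.1 and 53.9 CPM in the KO libraries. The KO libraries were alike and lay below every WT library, at 48.0% of WT (log2 fold change -1.06 ± 0.05 SE, adjusted p = 1.29e-17). EPAS1, which encodes the alpha subunit of HIF-2 (chr2:46293667-46386697, plus strand), was at 60.9, 66.1 and 64.7 CPM in WT and at 4.68, 3.68 and 5.23 CPM in KO. Its level in KO was 14.4-fold lower (log2 fold change -3.84 ± 0.09 SE, adjusted p = 1.25e-27). Per kilobase of transcript, HIF1A was at 27.7 and EPAS1 at 12.4 CPM in WT, and at 13.3 and 0.878 CPM in KO. EPAS1 therefore made up 31.0% ± 1.25 (SD, n = 3) of the summed per-length level of the pair in WT and 6.16% ± 0.925 in KO, with no overlap between the groups.

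The prolyl hydroxylases fell as well, EGLN1 much more than EGLN3. EGLN1, the main oxygen-sensing hydroxylase of HIF alpha (chr1:231363751-231422287, minus strand), was at 65.0, 65.2 and 68.4 CPM in WT and at 8.14, 8.10 and 7.75 CPM in KO. The spread within each group was small beside this gap, which was 8.23-fold (log2 fold change -3.04 ± 0.07 SE, adjusted p = 2.04e-27). EGLN3, a hydroxylase strongly induced by hypoxia (chr14:33924227-34462774, minus strand), was at 9.56, 8.68 and 9.64 CPM in WT and at 4.31, 4.49 and 3.99 CPM in KO (log2 fold change -1.10 ± 0.11 SE, adjusted p = 4.43e-10). An annotated EGLN3 transcript overlaps the more abundant gene SPTSSA on the same strand (13150 counts over the 6 libraries against 927), and how such reads were assigned was not stated. By per-length level EGLN1 held 81.7% ± 0.756 of the EGLN1 and EGLN3 sum in WT and 53.9% ± 0.950 in KO (SD, n = 3). The third enzyme of this family, EGLN2, which was not among the 40 genes, was at 15.9 ± 0.400 and 14.1 ± 0.359 CPM (log2 fold change -0.18, adjusted p = 0.0459).

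Of the 10 hypoxia-induced targets, 9 were tested. Of these 6 were lower (66.7%, against 32.0% of all tested genes) and 1 was higher (11.1%, against 31.9%). The other 2 did not pass the test. ADM, which encodes the vasodilator peptide adrenomedullin (chr11:10305073-10307397, plus strand), was at 63.5, 58.9 and 67.7 CPM in WT and at 1.18, 1.04 and 1.46 CPM in KO. With 52.2-fold less RNA in KO it had the largest decrease of the 39 genes (log2 fold change -5.71 ± 0.11 SE, adjusted p = 5.95e-30). CA12, a membrane carbonic anhydrase (chr15:63321378-63381846, minus strand), was at 62.4, 69.3 and 62.9 CPM in WT and at 14.7, 15.01 and 14.2 CPM in KO, a 4.44-fold difference (log2 fold change -2.15 ± 0.07 SE, adjusted p = 7.29e-24). Its relative CA9 gave no counts in either group, which allows at most 0.270 CPM in the shallowest library, so that CA12 was the detected member of the pair in these cells.

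The other targets changed less or not detectably. P4HA1, a subunit of collagen prolyl hydroxylase, went from 151 ± 3.84 to 94.0 ± 3.89 CPM (log2 fold change -0.69, adjusted p = 8.55e-14). ANKRD37, an ankyrin repeat gene strongly induced by HIF, went from 4.82 ± 0.919 to 2.54 ± 0.195 CPM (log2 fold change -0.88, adjusted p = 1.55e-05), and without WT replicate 2 it passed the fold threshold at -1.07. It overlaps UFSP2, a more abundant gene on the other strand (3906 counts against 499). BNIP3 and BNIP3L, which mark mitochondria for autophagy, fell by 0.26 and 0.19 on the log2 scale. KDM3A, a histone demethylase, rose from 95.8 ± 0.301 to 112 ± 3.63 CPM (log2 fold change 0.23, adjusted p = 1.56e-04). VEGFA, the angiogenic growth factor most often used as a hypoxia readout, was at 75.4 ± 3.50 CPM in WT and 75.3 ± 1.18 CPM in KO (log2 fold change 0.00 ± 0.05 SE, adjusted p = 0.988). NDRG1 was low in both groups, at 1.70 ± 0.435 and 2.28 ± 0.371 CPM, and its libraries overlapped. Its difference was not called with all libraries (log2 fold change 0.39, adjusted p = 0.0952), and it was called higher without KO replicate 2 (0.54) or without WT replicate 1 (0.67).

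**Figure D2:**
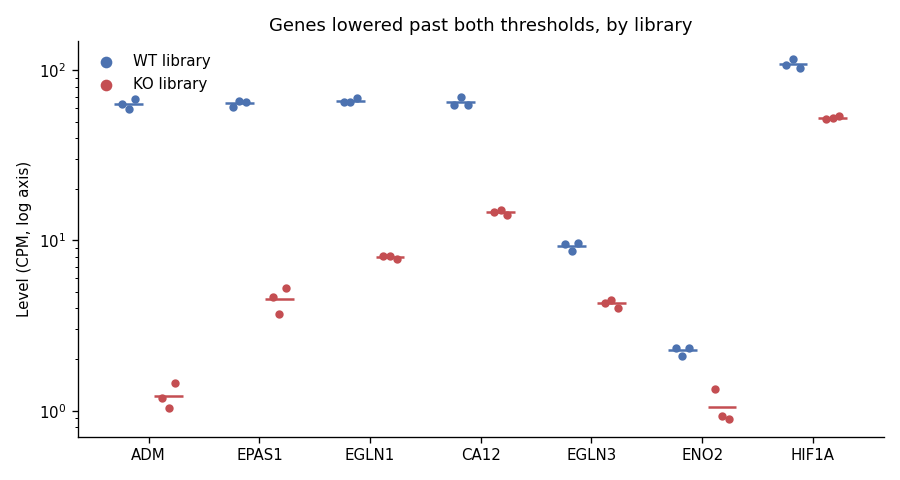
Level of the 7 genes past both thresholds (vertical log axis, CPM), with 1 point for each of the 3 WT and 3 KO libraries and a line at the group mean. WT and KO points are separate for each gene, with ADM between 1.04 and 1.46 CPM in KO, EGLN1 near 8 CPM and HIF1A above 51 CPM.

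A further 42 genes known to be induced by hypoxia, not among the 40, were read beside them. Of the 37 tested, 10 were down-regulated past both thresholds (27.0%, against 7.73% of all tested genes), and 4 were up-regulated, a share near the 8.30% of all tested genes. At the adjusted p alone 19 were lower (51.4%, against 32.0%) and 7 were higher (18.9%, against 31.9%), and their median log2 fold change was -0.27. Those with the largest changes are described here. LOX and LOXL2 encode lysyl oxidases that cross-link collagen. LOX had 0 counts in all KO libraries and 0.931 ± 0.115 CPM in WT, at least 5.52-fold lower against a floor of 3 counts per library, and LOXL2 went from 113 ± 2.52 to 24.5 ± 1.04 CPM (log2 fold change -2.20). IGFBP3, which binds insulin-like growth factors, went from 1.02 ± 0.391 to 0.203 ± 0.116 CPM. Its KO libraries held 4, 9 and 2 counts, near the floor of 3 counts. FLT1, a receptor for VEGF, went from 3.16 ± 0.474 to 1.10 ± 0.157 CPM. ERO1A, the oxidase that supplies disulfide bonds in the endoplasmic reticulum, went from 276 ± 9.27 to 102 ± 6.17 CPM. Others of the list rose.

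AK4, a mitochondrial adenylate kinase, was at 7.44, 7.08 and 8.19 CPM in WT and at 27.1, 26.9 and 24.3 CPM in KO (log2 fold change 1.82 ± 0.09 SE, adjusted p = 9.76e-19). DDIT4, an inhibitor of mTORC1 that stress other than hypoxia also induces, rose from 143 ± 42.0 to 428 ± 33.4 CPM (log2 fold change 1.57 ± 0.10 SE, adjusted p = 4.75e-15), with WT replicate 1 the highest of the WT libraries at 190 CPM. Among 14 other components of the HIF pathway 13 were tested and 0 passed both thresholds, and HIF3A had 0 counts throughout. At the adjusted p alone 5 of the 13 were lower (38.5%) and 4 were higher (30.8%), shares near the 32.0% and 31.9% of all tested genes. ARNT, the partner of both alpha subunits, went from 121 ± 1.73 to 95.5 ± 3.51 CPM (log2 fold change -0.34, adjusted p = 3.29e-07). VHL, which recognises hydroxylated HIF alpha, was at 111 ± 3.55 and 116 ± 2.78 CPM (adjusted p = 0.263). HIF1AN, the asparaginyl hydroxylase of HIF alpha, rose from 80.0 ± 2.32 to 95.4 ± 2.05 CPM (log2 fold change 0.25, adjusted p = 5.22e-05). ARNT, EGLN2, VHL and HIF1AN were named for their role after their values were seen.

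**Figure D3:**
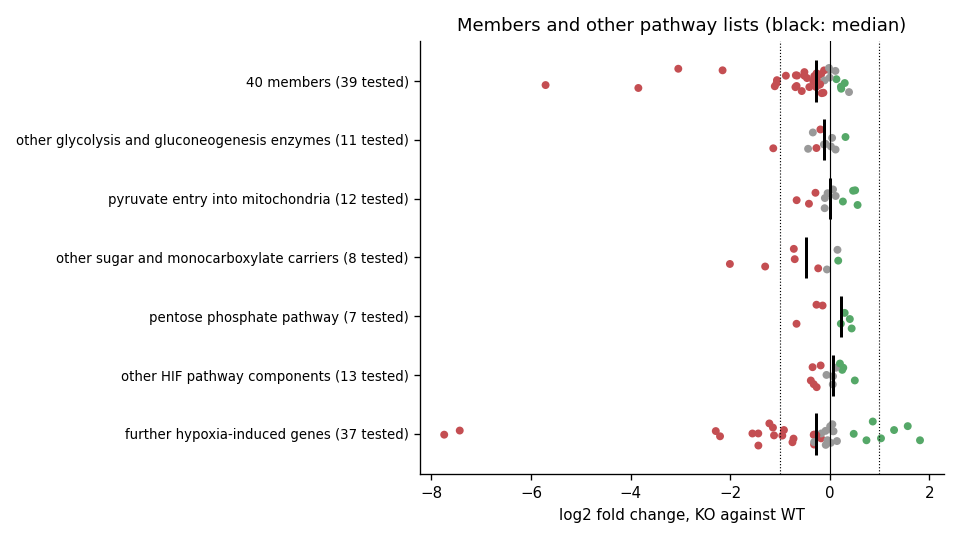
Log2 fold change (horizontal axis) of the tested genes among the 40 and in 6 other lists of the same pathways, with 1 point per gene, a black bar at the list's median, and dotted lines at -1 and 1. Red and green mark lower and higher genes at an adjusted p under 0.05, and grey points passed neither. The further hypoxia-induced genes reach much further below 0 than above it, where the highest is at 1.82, whereas the pentose phosphate genes stay between -0.67 and 0.44.

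The 2 glucose carriers fell by similar amounts. SLC2A1, the widespread basal glucose transporter, went from 37.9 ± 2.17 to 23.9 ± 0.239 CPM (log2 fold change -0.66 ± 0.06 SE, adjusted p = 1.26e-10). SLC2A3, a transporter of high affinity, went from 148 ± 10.2 to 94.7 ± 10.6 CPM (log2 fold change -0.65 ± 0.06 SE, adjusted p = 7.02e-11). SLC2A1 held 22.5% ± 2.19 of their summed per-length level in WT and 22.3% ± 1.96 in KO, and the libraries overlapped. Of 14 other sugar and monocarboxylate carriers, 8 were tested. Of these 5 were lower (62.5%, against 32.0% of all tested genes) and 1 was higher (12.5%, against 31.9%). Past both thresholds 2 were lower (25%, against 7.73%). These were the insulin-responsive carrier SLC2A4, from 2.90 ± 0.203 to 0.721 ± 0.106 CPM (log2 fold change -2.004), and SLC2A12, from 2.04 ± 0.0575 to 0.843 ± 0.147 CPM (log2 fold change -1.30).

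In the preparatory phase of glycolysis 4 of 9 enzymes were lower (44.4%, against 32.0% of all tested genes). Another 3 were higher (33.3%, a share near the 31.9% of all tested genes). The other 2 did not pass the test, and none passed the fold threshold. The 3 that rose were glucose-6-phosphate isomerase GPI, from 329 ± 10.96 to 387 ± 9.69 CPM (log2 fold change 0.23), and the phosphofructokinases PFKL, from 162 ± 2.98 to 200 ± 4.54 CPM (0.30), and PFKP, from 197 ± 5.93 to 217 ± 1.88 CPM (0.14). The phosphofructokinase of muscle, PFKM, was at 163 ± 7.20 and 151 ± 4.11 CPM, and its call at an adjusted p of 0.0454 was lost in several alternatives, among them without WT replicate 2 (-0.08), WT replicate 3 (-0.12), KO replicate 1 (-0.09) or KO replicate 3 (-0.11). PFKP was no longer called without WT replicate 3 (0.11). Hexokinase HK1, which traps glucose as its phosphate, was at 182 ± 7.58 and 181 ± 3.58 CPM (adjusted p = 0.943), whereas the hypoxia-inducible HK2 went from 85.7 ± 5.55 to 75.9 ± 1.59 CPM (log2 fold change -0.17, adjusted p = 6.39e-03). Of the aldolases, ALDOC went from 65.8 ± 6.54 to 46.7 ± 0.980 CPM (log2 fold change -0.51, adjusted p = 1.01e-08), and the far more abundant ALDOA was at 1163 ± 34.3 and 1083 ± 25.7 CPM (adjusted p = 0.0610). ALDOA was called lower by voom/limma and DESeq2 with all libraries (-0.10 in each), and by edgeR without KO replicate 2 (-0.12) or without WT replicate 3 (-0.13). Triose phosphate isomerase, TPI1, went from 776 ± 19.8 to 642 ± 31.3 CPM (log2 fold change -0.27, adjusted p = 1.03e-05). ALDOC overlaps RSKR on the same strand (1937 counts against 7836), and PFKM overlaps SENP1 on the other strand (6808 against 21674). RSKR and SENP1 were themselves at log2 fold changes of -0.46 and -0.75. The part of their reads in the ALDOC and PFKM counts was not tested.

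In the payoff phase 6 of 7 enzymes were lower (85.7%, against 32.0% of all tested genes) and 0 were higher (against 31.9%). GAPDH, which makes the NADH of glycolysis and is a common reference gene, was at 3237, 3368 and 3079 CPM in WT and at 3377, 3631 and 3493 CPM in KO. Every KO library lay above every WT library, by little, and the difference did not pass the test (log2 fold change 0.12 ± 0.05 SE, adjusted p = 0.0505). It did pass, as higher, without WT replicate 2 (0.15) and in all 7 alternatives of tool, scaling, filter or depth (0.12 to 0.14). PGK1, which forms ATP, went from 565 ± 26.2 to 413 ± 10.8 CPM (log2 fold change -0.45 ± 0.05 SE, adjusted p = 6.21e-10). The mutase PGAM1 went from 85.4 ± 4.79 to 68.0 ± 2.00 CPM (log2 fold change -0.33), and the enolase ENO1 from 1607 ± 56.0 to 1346 ± 55.8 CPM (log2 fold change -0.26). Pyruvate kinase PKM went from 1220 ± 42.4 to 1119 ± 29.9 CPM (log2 fold change -0.12, adjusted p = 0.0241). That call was lost without WT replicate 2 (-0.10), KO replicate 1 (-0.11) or KO replicate 3 (-0.12).

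ENO2, the enolase of neurons (chr12:6913745-6923698, plus strand), was the only one of the 18 enzymes past both thresholds and by far the least abundant of them. It was at 2.34, 2.10 and 2.34 CPM in WT and at 1.34, 0.929 and 0.899 CPM in KO (log2 fold change -1.06 ± 0.21 SE, adjusted p = 5.34e-05). KO replicate 1 lay above the other KO libraries, and without KO replicate 2 (-0.95) or KO replicate 3 (-0.99) the fold threshold was not reached. ENO2 overlaps LRRC23 on the same strand, which had more counts (1008 against 227). ENO3, the enolase of muscle, went from 122 ± 7.18 to 92.0 ± 9.02 CPM (log2 fold change -0.41), but it overlaps PFN1 on the other strand, with 123882 counts against 14766. The libraries were stranded, and whether strand was used in counting was not stated, so that reads of PFN1 in the ENO3 count cannot be told apart. Of 25 other enzymes of glycolysis and gluconeogenesis 11 were tested. Of these 3 were lower (27.3%, against 32.0% of all tested genes) and 1 was higher (9.09%, against 31.9%). Past both thresholds 1 was lower, a share of 9.09% that is near the 7.73% of all tested genes. This was BPGM, which makes the regulator of haemoglobin oxygen affinity in red cells, at 23.0, 23.8 and 24.1 CPM in WT and at 11.2, 9.99 and 11.3 CPM in KO (log2 fold change -1.13 ± 0.08 SE, adjusted p = 4.10e-14).

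**Figure D4:**
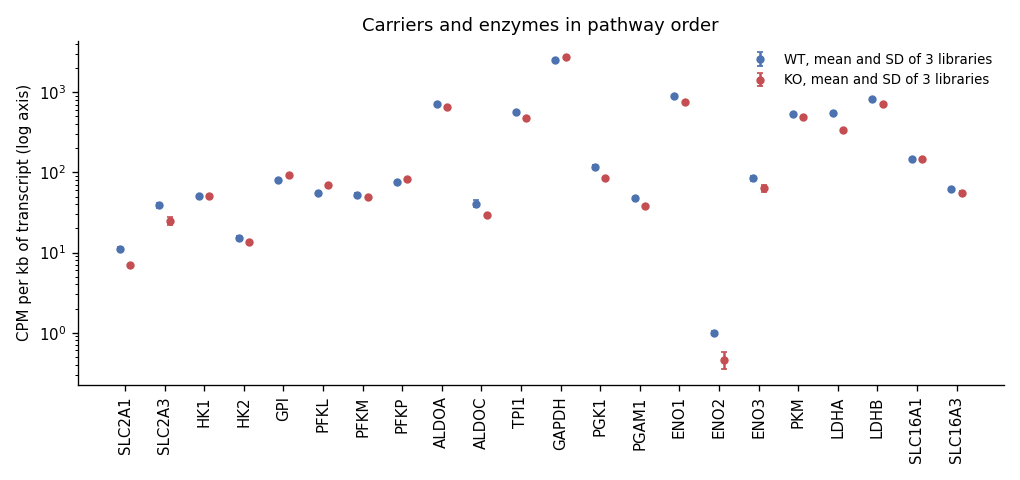
Mean level per transcript length (vertical log axis, CPM per kilobase, bars are SD of 3 libraries) of glucose carriers, glycolytic enzymes, lactate dehydrogenases and monocarboxylate carriers, from entry of glucose on the left to export of lactate on the right. GAPDH is highest in both groups at 2512 (WT) and 2724 (KO), ENO2 is lowest at 0.985 and 0.461, and LDHA falls from 549 to 343.

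Both lactate dehydrogenases fell, LDHA more than LDHB. LDHA (chr11:18394560-18408425, plus strand), whose subunit is the form typical of muscle and of hypoxic cells, was at 1241, 1269 and 1183 CPM in WT and at 775, 788 and 744 CPM in KO. Its level in KO was 62.5% of WT (log2 fold change -0.68 ± 0.05 SE, adjusted p = 6.25e-14). LDHB, the heart form, went from 1069 ± 9.23 to 927 ± 23.9 CPM (log2 fold change -0.21 ± 0.05 SE, adjusted p = 2.81e-04). The pair together fell by 26.3% in summed CPM, from 2300 ± 44.5 to 1696 ± 44.9. Of the carriers that export lactate, SLC16A1 was at 557 ± 8.15 and 551 ± 12.1 CPM (adjusted p = 0.812). SLC16A3, the one associated with hypoxia, went from 162 ± 6.32 to 145 ± 9.18 CPM (log2 fold change -0.16, adjusted p = 7.50e-03), a call lost without KO replicate 3 (-0.11). It overlaps CSNK1D on the other strand, with 24000 counts against 21347.

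Summed over the 16 glycolytic enzymes and both lactate dehydrogenases, WT libraries reached 12254 ± 346 CPM and KO libraries 11220 ± 308 CPM (SD, n = 3), so that the sum fell by 8.44%, and the groups did not overlap. An exact permutation test, two-sided, gave p = 0.1, the smallest that 3 libraries against 3 allow. The preparatory phase summed to 3124 ± 50.9 and 2985 ± 73.0 CPM. The payoff phase summed to 6830 ± 259 and 6539 ± 216 CPM, and its libraries overlapped (exact permutation p = 0.2). GAPDH alone reached about the same level as the other payoff enzymes together, and without it the payoff sum fell from 3602 ± 114 to 3039 ± 99.6 CPM, by 15.6% (exact permutation p = 0.1). Annotated pseudogenes of these genes held at most 1.45% of the counts of the parent gene, the highest share being that of PGAM1.

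All 4 regulatory kinases were lower, against 32.0% of all tested genes, each by less than the fold threshold. PDK1 and PDK3 phosphorylate pyruvate dehydrogenase and so limit the use of pyruvate in the mitochondrion. PDK1 went from 85.1 ± 3.91 to 59.6 ± 1.93 CPM (log2 fold change -0.51, adjusted p = 6.12e-10), and PDK3 from 7.14 ± 0.0645 to 5.71 ± 0.434 CPM (log2 fold change -0.31, adjusted p = 0.0167), a call lost without KO replicate 3 (-0.26) and with DESeq2 (-0.31). PFKFB3 and PFKFB4 make the sugar phosphate that activates phosphofructokinase. PFKFB3 went from 47.6 ± 3.34 to 32.3 ± 2.02 CPM (log2 fold change -0.56, adjusted p = 4.52e-09), and PFKFB4 from 41.5 ± 1.84 to 34.3 ± 2.80 CPM (log2 fold change -0.26, adjusted p = 6.21e-04). Of 13 other genes for the entry of pyruvate into the mitochondrion and its use there, 12 were tested. Of the 12, 3 were lower (25%, against 32.0% of all tested genes) and 4 were higher (33.3%, against 31.9%). None passed both thresholds, and the median log2 fold change was 0.01. In the pentose phosphate pathway, which branches from glycolysis at glucose-6-phosphate, 7 genes were tested. Of these 4 were higher (57.1%, against 31.9% of all tested genes) and 3 were lower (42.9%, against 32.0%). None passed both thresholds, and the median was 0.23.

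Within families the balance of isozymes shifted in several cases, taking each gene's per-length level as a share of its family in every library. LDHA held 40.1, 41.0 and 39.2% of the lactate dehydrogenase level in WT and 32.3, 32.9 and 32.5% in KO. PFKL went from 30.4% ± 0.718 to 34.4% ± 0.178 of the phosphofructokinases, while PFKM went from 28.8% ± 1.24 to 24.4% ± 0.240 (SD, n = 3). HK2 went from 23.2% ± 0.868 to 21.1% ± 0.681 of the hexokinases, and ALDOC from 5.46% ± 0.466 to 4.22% ± 0.178 of the aldolases. PDK3 was 40.4% ± 0.929 and 43.6% ± 2.42 of its pair, and PFKFB4 52.8% ± 2.23 and 57.6% ± 3.21. In each of these the groups did not overlap, and each gave the smallest possible exact permutation p of 0.1. The gap was narrow for PDK3, with 41.12% the highest share in WT and 41.17% the lowest in KO. For PFKFB4 these were 54.2 and 54.5%. The PDK3 share rests on canonical lengths of 14072 bases for PDK1 and 1741 for PDK3. In CPM, PDK1 was far more abundant (85.1 against 7.14 in WT). The shares of SLC16A3 (29.6% ± 0.951 and 27.5% ± 1.17), of ENO3 (8.53% ± 0.649 and 7.72% ± 0.479) and of SLC2A1 overlapped between groups. The widest shifts were those of the HIF alpha subunits and of the prolyl hydroxylases given above, where the share of EPAS1 fell by 24.8 and that of EGLN1 by 27.7 percentage points.

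**Figure D5:**
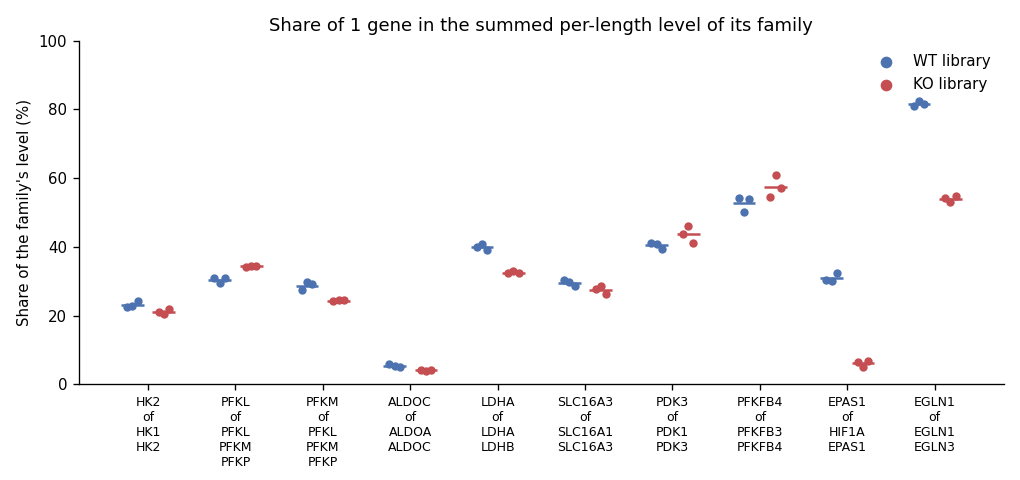
Share of a named gene in the summed per-length level of its family (vertical axis, percent), with 1 point for each WT and KO library and a line at the group mean; the genes summed stand under each name. EPAS1 drops from 31.0% to 6.16% of the HIF alpha pair and EGLN1 from 81.7% to 53.9% of its pair, and SLC16A3 is the family shown whose groups overlap.

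Because KO is a single clone, the 2 nearest tested genes on each side of the 7 most lowered genes were also read. Of these 28 neighbours 1 was down-regulated and 2 up-regulated past both thresholds, with a median log2 fold change of -0.18. Neither count is above the 7.73% and 8.30% of all tested genes called so. The lowered neighbour was SBF2, a phosphatase-like gene that starts 195 bases from ADM and runs away from it on the minus strand (chr11:9776776-10304877). SBF2 was at 117, 129 and 119 CPM in WT and at 27.7, 29.0 and 31.3 CPM in KO (log2 fold change -2.06 ± 0.06 SE, adjusted p = 8.30e-25), so that both genes flanking the ADM window printed above were lower. The 2 raised neighbours lie on the same side of EGLN3 on chromosome 14, NPAS3 at 103 kb and AKAP6 at 1087 kb from it. AKAP6, an anchor for protein kinase A, was at 13.98, 13.7 and 12.97 CPM in WT and at 214, 193 and 221 CPM in KO (log2 fold change 3.94 ± 0.07 SE, adjusted p = 2.04e-31). NPAS3, a transcription factor of the same protein class as HIF alpha, was at 0.146, 0 and 0 CPM in WT and at 2.52, 2.01 and 2.47 CPM in KO. The neighbours of EPAS1, EGLN1, CA12, HIF1A and ENO2 stayed between -0.54 and 0.58.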

How the data were processed

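The authors deposited raw counts per gene, whole numbers for 60483 Ensembl genes in 6 libraries, made with FastQC, STAR and HTSeq on GRCh38 from stranded single-ended reads. Tool versions, annotation release and HTSeq's strand setting are not given in the sources used here. Groups follow the genotype of each library. The 40 genes, the 6 other pathway lists and the marker lists were chosen with earlier results of these data known.

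Counts were tested in R 4.3.3 with edgeR 4.0.16: filterByExpr (minimum count 10, minimum total 15), TMM scaling, the quasi-likelihood test, two-sided, and Benjamini-Hochberg adjustment over 16198 genes. The thresholds, adjusted p under 0.05 and log2 fold change above 1 or below -1, are those of the study's methods, which name voom/limma. CPM used TMM-scaled totals. Per-length levels divide by the Ensembl canonical transcript of GENCODE 44. Exact permutation tests used log2 CPM with 0.1 added, and for the isozyme shares the percentages themselves. Named genes are all 40, those of other lists past both thresholds (at most 8 per list), and neighbours. A gene of the further hypoxia list is not reported here. Floors of 3 counts (0.0971 to 0.270 CPM) cover counting error only. Within groups, counts varied beyond sampling noise (chi-square per degree of freedom 1.70 to 7.07). Promoter windows are RefSeq's.

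Alternatives were voom/limma 3.58.1, DESeq2 1.42.0, median-of-ratios and upper-quartile scaling, no filter beyond 1 count, at least 10 counts in every library, thinning to the smallest total, omission of each library, an adjusted p under 0.01, and a test against the fold threshold. Alternatives for the isozyme shares were added after the data were seen. Tests were checked on simulated counts. Other steps ran in Python 3.11.15 (scipy 1.17.1, numpy 2.4.6, pandas 2.3.3). Protein, cell growth and in vivo experiments were not analysed here.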

Additional observations from a re-analysis of the deposited data

How the results depend on the processing

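In each of 13 alternatives (7 of tool, scaling, filter or depth and 6 that omit a library) ADM, EPAS1, EGLN1, CA12, EGLN3 and HIF1A stayed past both thresholds, and ENO2 in 11, lost without KO replicate 2 or KO replicate 3. Tested against the fold threshold itself, 4 genes were called lower in place of 7 (ADM, EPAS1, EGLN1 and CA12). The count was 8 when libraries were thinned and without WT replicate 2, through ANKRD37. The median log2 fold change lay between -0.34 (without KO replicate 2) and -0.25 with a library omitted. Genes near 0 changed sign: HK1 was at 0.0233 under upper-quartile scaling, 0.0188 with at least 10 counts in every library and 0.0206 after thinning, and between -0.0402 and 0.0266 with a library omitted; SLC16A1 was at 0.0139 under upper-quartile scaling and 0.00988 with at least 10 counts; VEGFA was at -0.0284 after thinning and between -0.0436 and 0.0310 with a library omitted. The SLC2A1 share, KO minus WT, was between -1.24 and 0.99 percentage points with a library omitted. GAPDH was called higher in all 7 alternatives of tool, scaling, filter or depth (0.12 to 0.14), and PFKM and PKM lost their calls under upper-quartile scaling (-0.08 and -0.10) among others. With exon-union lengths the EGLN1 share fell by 18.7 percentage points in place of 27.7. No paired analysis was possible because no label ties a WT library to a KO library. At the shallowest depth, levels under 0.270 CPM were not detectable.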
